A study of Mus musculus with 12 samples.

Results

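Polyamines are made, broken down and held in check by a small set of genes, and 10 of them are described here across cultured mouse neural cells. The genes were chosen by name: Odc1, Amd1, Srm, Sms, Sat1, Smox, Paox, Azin1, Oaz1 and Oaz2, each as the row with that symbol in the 12 deposited expression tables. They are 10 of 53932 gene identifiers in those tables, and all 10 were among the 16982 genes tested. Those reached 1 FPKM in at least 3 libraries and carried the status OK in all 12. FPKM is the number of sequenced fragments per kilobase of transcript, scaled to the fragments of the library, so that levels can be set side by side between genes.

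Putrescine, spermidine and spermine are small, positively charged molecules that bind nucleic acids and are needed for translation and growth. Ornithine decarboxylase makes putrescine from ornithine, and the spermidine and spermine synthases then add aminopropyl groups taken from decarboxylated S-adenosylmethionine, so the pathway draws on the methionine cycle. Breakdown runs through acetylation and oxidation. Antizymes bind ornithine decarboxylase, send it to the proteasome and block polyamine uptake, and the antizyme inhibitor takes antizymes away from the enzyme. Antizymes are themselves made only when the ribosome shifts reading frame, a step that polyamines favour.

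Of the 12 libraries, from total RNA of C57BL/6 cells, 3 belonged to each of 4 groups. NSC were neural stem cells grown as neurospheres from cortex of embryonic day 14.5, with EGF and FGF2 at 20 ng/mL. Astrocytes, labelled cortex and day 14.5, were kept in medium with 10% serum. The labels allow 2 origins for them, postnatal cortex sorted for GLAST or differentiated neurospheres, and do not say which was used. MIM-Astrocytes, with the same tissue and age labels, were astrocytes moved to serum-free MIM medium with FGF2 at 20 ng/mL and up to 6 metabolites. These are methionine, threonine, glycine, cysteine, S-adenosylmethionine and putrescine. The cells were collected by day 5, and which metabolites these libraries received is not stated, so putrescine itself may or may not have been in the medium. Serum, FGF2 and metabolites changed together between the 2 astrocyte groups and cannot be told apart. Glioblastoma is labelled Cerebella and E18.5, with no account of how the tumour cells were made or of their medium. Several labelled features differed together in the other comparisons too. Examples are tissue and age for Glioblastoma, and growth factors and serum for NSC against Astrocytes. They cannot be told apart either. Whether replicates are separate cultures or animals is not labelled, and the p-values then describe only how far these 3 libraries of each group spread, which may be technical.

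The summed FPKM of a library ran from 514728 to 979106. The Glioblastoma libraries were above all others, except that NSC replicate 2 (812381) exceeded Glioblastoma replicate 1 (812104). The width of the interval deposited with each value, read as counting error alone, corresponds to about 32 to 99 fragments for Paox and 2444 to 3616 for Oaz1 in a library. Gfap, the astrocyte filament gene, stood at 241 to 273 FPKM in Astrocytes, 7.11 to 7.50 in MIM-Astrocytes, 0.851 to 1.16 in NSC and 2.95 to 3.55 in Glioblastoma. The list of 7 astrocyte markers that holds Gfap summed to 1345 to 1526, 1178 to 1424, 748 to 863 and 401 to 425 FPKM in the same order, with 3 markers called higher and 2 lower in MIM-Astrocytes than in Astrocytes. The progenitor gene Hes5 stood at 0.583 to 0.782, 35.9 to 45.3, 99.2 to 125 and 87.4 to 95.8 FPKM in that order. Its list of 6 progenitor markers summed to 834 to 1051, 4079 to 4478, 2694 to 3210 and 914 to 1059 FPKM, so the Glioblastoma sums overlapped those of Astrocytes. Of these 6, 4 were called higher and 2 lower in MIM-Astrocytes than in Astrocytes, and 3 higher and 1 lower in Glioblastoma. Of all genes tested, 34.8% were called higher and 26.6% lower in MIM-Astrocytes than in Astrocytes, and 47% and 31.3% in Glioblastoma. Calls are those of the test described further on. No marker list was used to check the Glioblastoma label. Microglial markers summed to at most 0.510 FPKM in any library. A list of 4 endothelial markers summed to 1.66 to 1.88 FPKM in Astrocytes and 0.207 to 0.563 elsewhere. Cdh5 was listed at 0 in all 12 libraries, and Kdr, the member tested, was called lower in each other group than in Astrocytes (-1.32 to -1.19). In bulk RNA, fewer cells of a type and less RNA per cell cannot be told apart.

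Oaz1 and Oaz2 encode the antizymes, and the place where their reading frame shifts is shown because it sets them apart from the other 8 genes: a full antizyme is read only if 1 base of the TCCTGA site is skipped. The windows were read from GRCm38 through the annotated transcripts, 5′ to 3′ on the plus strand, with TCCTGA in capitals. Oaz1 lies at chr10:80828262-80828327 with its annotated skipped base at 80828295 on chromosome 10, and Oaz2 at chr9:65686239-65686304 with the skipped base at 65686272 on chromosome 9.
Oaz1: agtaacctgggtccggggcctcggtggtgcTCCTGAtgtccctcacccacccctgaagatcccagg
Oaz2: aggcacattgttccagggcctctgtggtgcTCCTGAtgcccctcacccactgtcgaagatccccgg
The 2 windows are identical at 53 of 66 positions, against 371 of 561 aligned coding bases (66.1%) for the genes as a whole. FPKM measures the messenger only, so none of the antizyme values below says how often the frame was shifted.

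Levels ranged widely between the 10 genes. Oaz1 exceeded 98.3% to 99.3% of the 12520 coding genes tested in every group, and Odc1, Azin1, Oaz2, Smox and Sat1 lay between 13.8 and 117 FPKM in every library. Amd1, Srm and Sms lay between 4.17 and 27.3 FPKM, overlapping the lower values of Sat1, Smox and Oaz2. Paox was the lowest, at 1.26 to 3.51 FPKM, where the deposited interval spans 20.1% to 35.2% of the value on each side.

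**Figure D1:**
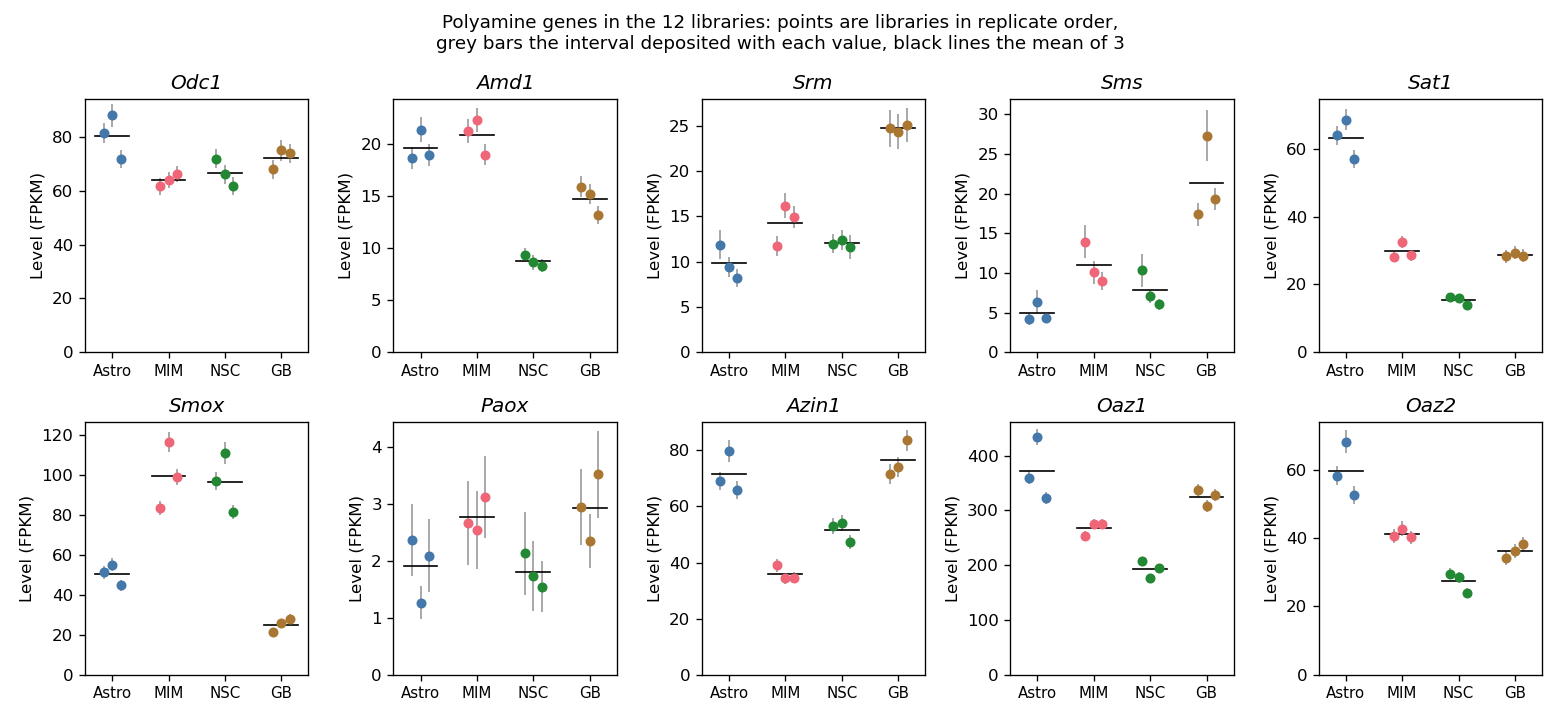
Levels in FPKM (vertical axis, from 0) of the 10 genes in the 12 libraries, by group (Astro, Astrocytes; MIM, MIM-Astrocytes; GB, Glioblastoma). Points are libraries in replicate order, grey bars the interval deposited with each value and black lines the mean of 3; Sat1 separates Astrocytes (57.1 to 68.6) from all other libraries, and Smox separates MIM-Astrocytes and NSC (81.6 to 117) from Astrocytes and Glioblastoma.

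The differences below are of log2(FPKM + 1) from 1 limma model over all 12 libraries and all genes tested, with Benjamini-Hochberg adjusted p-values and a threshold of 0.05. They understate the change of low genes such as Paox. Since each group enters 3 comparisons, the comparisons share libraries and are not independent of each other.

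Odc1 (chr12:17544794-17551505, plus strand) encodes ornithine decarboxylase, the enzyme of the first step. Astrocytes stood at 81.5, 88.1 and 71.8 FPKM and MIM-Astrocytes at 61.7, 64.2 and 66.4. NSC stood at 72.0, 66.1 and 61.7 and Glioblastoma at 68.0, 75.0 and 73.9. All MIM-Astrocytes libraries were below all Astrocytes, while NSC and Glioblastoma overlapped Astrocytes. Odc1 was lower in MIM-Astrocytes than in Astrocytes by a log2 difference of -0.32 (SE 0.08, adjusted p = 0.00735), and in NSC by -0.27 (adjusted p = 0.0159). The NSC call was lost without Astrocytes replicate 2 (-0.20, adjusted p = 0.0588) or NSC replicate 3 (-0.21, adjusted p = 0.0596). In Glioblastoma against Astrocytes the difference was -0.15 (adjusted p = 0.131) as deposited, but -0.76 to -0.45 and called lower under all 4 other scalings described further on, and called (-0.23, adjusted p = 0.0245) without Astrocytes replicate 3. As deposited, Odc1 passed the test in the fewest comparisons of the 10 genes, 2 of 6, and its highest library was 1.43 times its lowest. It was also called lower in MIM-Astrocytes against NSC under 2 of the 4 other scalings (-0.19 to 0.0066 over all 4). In Glioblastoma against NSC it was likewise called lower under 2 of them (-0.21 to -0.098). The ranking therefore holds for the deposited values only, and Paox was called in fewer comparisons under each of the 4.

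Amd1 (chr10:40287458-40302186, minus strand) encodes S-adenosylmethionine decarboxylase, the source of the aminopropyl groups. It stood at 18.7, 21.4 and 18.9 FPKM in Astrocytes and 21.2, 22.3 and 19.0 in MIM-Astrocytes. NSC had 9.33, 8.62 and 8.31 FPKM, below every other library, and Glioblastoma 15.9, 15.2 and 13.2. MIM-Astrocytes and Astrocytes overlapped, with a log2 difference of 0.08 (SE 0.09, adjusted p = 0.45) that turns to as low as -0.24 under another scaling and is called under none. NSC were lower than Astrocytes by -1.08 (SE 0.09, adjusted p = 1.16e-06), and MIM-Astrocytes higher than NSC by 1.16 (SE 0.09, adjusted p = 1.77e-06). Glioblastoma lay between, at -0.39 against Astrocytes and 0.69 against NSC, both called, and at -0.98 to -0.65 and 0.40 to 0.48 under the 4 other scalings, all called.

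Amd1 has a near-identical copy, so its own level is uncertain. Amd2 matches it at 1001 of 1002 coding bases and at 99.6% of the whole transcript, and a pseudogene row, Amd-ps3, had levels of the same size. Amd2 averaged 11.5 ± 1.52, 9.53 ± 4.01, 4.87 ± 0.540 and 3.42 ± 1.16 FPKM in Astrocytes, MIM-Astrocytes, NSC and Glioblastoma (SD, n = 3), and Amd-ps3 averaged 19.8, 20.6, 8.45 and 21.6. In MIM-Astrocytes replicate 2, Amd2 was the lowest of its group (4.996 FPKM) and Amd-ps3 the highest (27.0). Added together, Amd1 and Amd2 gave 31.2 ± 2.76, 30.4 ± 2.66, 13.6 ± 0.977 and 18.2 ± 1.02 FPKM. In this sum, an alternative chosen after the data were seen, NSC against Astrocytes was -1.14 (adjusted p = 7.25e-07). Glioblastoma against Astrocytes was -0.74 with Amd2 added and -0.35 with Amd-ps3 added as well, both called, so the size of the Glioblastoma difference depended on which copies were counted.

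**Figure D2:**
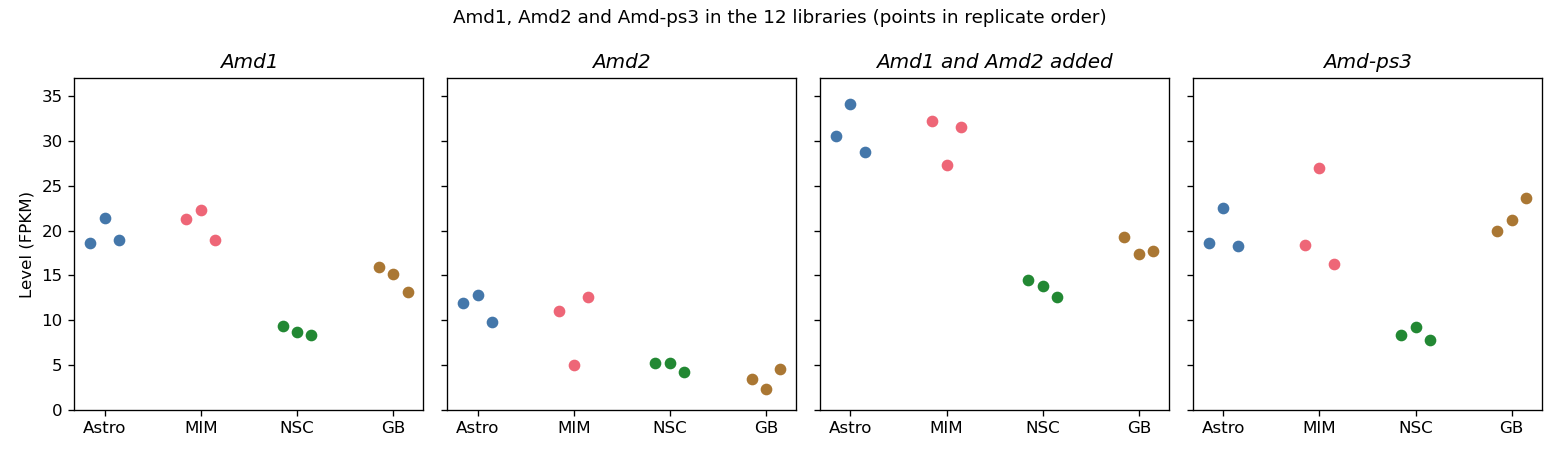
Levels in FPKM (vertical axis, from 0) of Amd1, Amd2, their sum and the pseudogene row Amd-ps3 in the 12 libraries, points in replicate order within each group. NSC are the lowest group for Amd1, the sum and Amd-ps3, while Glioblastoma is low for Amd2 (2.25 to 4.58) and not for Amd-ps3 (19.9 to 23.6).

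Srm (chr4:148591503-148594993, plus strand) encodes spermidine synthase. Astrocytes had 11.9, 9.43 and 8.19 FPKM, MIM-Astrocytes 11.7, 16.2 and 14.9, NSC 11.99, 12.4 and 11.6, and Glioblastoma 24.7, 24.3 and 25.1. The Glioblastoma libraries were above all others and close to one another, whereas MIM-Astrocytes replicate 1 fell within the Astrocytes range. The log2 difference from Astrocytes was 1.26 in Glioblastoma (SE 0.13, adjusted p = 5.53e-06), a 2.51-fold higher mean. It was 0.50 in MIM-Astrocytes (adjusted p = 0.00632), a call that was lost when the libraries were scaled to a common FPKM total (0.19, adjusted p = 0.0994). NSC differed from Astrocytes by 0.28 (adjusted p = 0.0756). That difference turned to -0.088 at a common FPKM total and was called under quantile normalization (0.30, adjusted p = 0.0282), without Astrocytes replicate 1 (0.41, adjusted p = 0.0108) or MIM-Astrocytes replicate 1 (adjusted p = 0.0388).

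Sms (chrX:157443855-157492287, minus strand) encodes spermine synthase and had the widest range of the 10, its highest library 6.55 times its lowest. Astrocytes stood at 4.17, 6.37 and 4.36 FPKM and MIM-Astrocytes at 13.9, 10.1 and 8.98. NSC stood at 10.3, 7.04 and 6.06 and Glioblastoma at 17.4, 27.3 and 19.3. Glioblastoma was above, and Astrocytes below, every MIM-Astrocytes library, while NSC overlapped both astrocyte groups. Against Astrocytes, Sms was higher by 1.90 in Glioblastoma (SE 0.24, adjusted p = 2.73e-05), a 4.30-fold higher mean, and by 1.01 in MIM-Astrocytes (SE 0.24, adjusted p = 0.00377), a 2.22-fold higher mean. Glioblastoma against MIM-Astrocytes was 0.89 (adjusted p = 0.00635), a call lost at a common FPKM total (0.62, adjusted p = 0.0552). The difference in NSC was 0.55 (adjusted p = 0.0577), and leaving out any 1 of 4 libraries (Astrocytes 2, NSC 3, MIM-Astrocytes 1 or Glioblastoma 2) brought it past the threshold. So did leaving mitochondrial genes and small RNAs out of the total (0.54, adjusted p = 0.0402), array weights (0.81, adjusted p = 0.000966) and a pseudocount of 0.1 (0.63, adjusted p = 0.0494). Sms varied by 23.6% to 28.5% of the mean within every group. As deposited, the means of Srm and Sms were both ordered Glioblastoma, MIM-Astrocytes, NSC, Astrocytes, although neither MIM-Astrocytes against NSC (0.22 for Srm, adjusted p = 0.166; 0.46 for Sms, adjusted p = 0.127) nor NSC against Astrocytes passed the test for either gene. In MIM-Astrocytes against NSC, leaving out MIM-Astrocytes replicate 1 brought Srm past the threshold (0.35, adjusted p = 0.0324), and leaving out NSC replicate 1 did so for Sms (0.65, adjusted p = 0.0442).

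Sat1 (chrX:155213132-155216449, minus strand) encodes spermidine/spermine N1-acetyltransferase, the acetylating enzyme that starts breakdown and export. Astrocytes stood at 64.0, 68.6 and 57.1 FPKM and MIM-Astrocytes at 28.2, 32.6 and 28.6. NSC stood at 16.1, 16.0 and 13.8 and Glioblastoma at 28.4, 29.4 and 28.5. Every Astrocytes library was above, and every NSC library below, all others, and MIM-Astrocytes and Glioblastoma overlapped. Sat1 was lower than in Astrocytes by -1.06 in MIM-Astrocytes (SE 0.08, adjusted p = 1.66e-06), by -1.97 in NSC (adjusted p = 8.53e-09) and by -1.11 in Glioblastoma (adjusted p = 5.52e-07). The Astrocytes mean was 2.12, 4.12 and 2.20 times the others in that order. MIM-Astrocytes remained above NSC by 0.91 (adjusted p = 8.31e-06). Glioblastoma against MIM-Astrocytes was -0.05 (adjusted p = 0.64) as deposited and -0.32 to -0.22, called lower, under the 4 other scalings.

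Smox (chr2:131491496-131525922, plus strand) encodes spermine oxidase, which turns spermine back into spermidine. Astrocytes had 51.2, 55.2 and 44.9 FPKM, MIM-Astrocytes 83.5, 117 and 99.0, NSC 97.1, 111 and 81.6, and Glioblastoma 21.6, 25.8 and 28.0. MIM-Astrocytes and NSC overlapped each other and lay above all Astrocytes, which in turn lay above all Glioblastoma libraries. The log2 difference from Astrocytes was 0.96 in MIM-Astrocytes (SE 0.15, adjusted p = 0.000301) and 0.92 in NSC (adjusted p = 0.000315). In Glioblastoma it was -0.98 (adjusted p = 0.000153), a mean 2.01 times lower. MIM-Astrocytes against NSC gave 0.04 (SE 0.15, adjusted p = 0.831), with a sign that changes between scalings. The widest gap was Glioblastoma against MIM-Astrocytes, at -1.94 (adjusted p = 1.18e-06), a 3.97-fold difference of means.

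Paox (chr7:140115799-140137224, plus strand) encodes the peroxisomal oxidase of acetylated polyamines. Its values were 2.36, 1.26 and 2.09 FPKM in Astrocytes, 2.67, 2.54 and 3.12 in MIM-Astrocytes, 2.13, 1.74 and 1.55 in NSC, and 2.94, 2.34 and 3.51 in Glioblastoma. MIM-Astrocytes lay above all Astrocytes and NSC libraries, and Glioblastoma overlapped Astrocytes. As deposited, Paox was called higher in Glioblastoma than in Astrocytes (0.45, adjusted p = 0.0244) and than in NSC (0.48, adjusted p = 0.0191), and higher in MIM-Astrocytes than in NSC (0.43, adjusted p = 0.0393). None of these held throughout. The Glioblastoma against Astrocytes call was lost under all 4 other scalings and without Astrocytes replicate 2 (0.28), Glioblastoma replicate 1 (0.44) or Glioblastoma replicate 3 (0.34). The call against NSC was lost under 3 of the 4 scalings (0.27 to 0.44 over all 4, adjusted p up to 0.173), and that of MIM-Astrocytes against NSC under 2 of them (0.38 to 0.47, adjusted p up to 0.0693). Glioblastoma against NSC was also lost without NSC replicate 3 (0.42) or Glioblastoma replicate 3 (0.38), and MIM-Astrocytes against NSC without any 1 MIM-Astrocytes library, NSC replicate 2 or 3, or Glioblastoma replicate 1 (0.37 to 0.48). MIM-Astrocytes against Astrocytes was 0.39 (adjusted p = 0.0512) and passed without Astrocytes replicate 1 (0.51) or Glioblastoma replicate 2 or 3. The exons of Paox overlap those of Echs1 on the other strand, which stood at 39.7 to 78.9 FPKM, and whether the libraries keep strand is not stated, so Paox is uncertain.

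Oaz1 (chr10:80826656-80829290, plus strand) encodes antizyme 1, the broadly expressed antizyme. Astrocytes stood at 359.8, 433 and 322 FPKM and MIM-Astrocytes at 254, 275 and 275. NSC stood at 207, 177 and 195 and Glioblastoma at 336, 308 and 327. All MIM-Astrocytes libraries were below all Astrocytes and above all NSC, and Glioblastoma overlapped Astrocytes. Oaz1 was lower than in Astrocytes by -0.46 in MIM-Astrocytes (SE 0.11, adjusted p = 0.00373) and by -0.93 in NSC (adjusted p = 2.11e-05). In Glioblastoma the difference from Astrocytes was -0.19 (adjusted p = 0.134) as deposited, and -0.98 to -0.49 and called lower under the 4 other scalings, or -0.28 and called (adjusted p = 0.0292) without Astrocytes replicate 3. Glioblastoma against MIM-Astrocytes was called as deposited (0.27, adjusted p = 0.0431), but under none of the 4 scalings, 2 of which turned its sign. That call was also lost on leaving out 8 of the 12 libraries in turn, among them each of the 3 MIM-Astrocytes and each of the 3 Glioblastoma libraries, with values of 0.24 to 0.31.

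Oaz2 (chr9:65668001-65690300, plus strand) encodes a second antizyme. Astrocytes had 58.3, 68.3 and 52.6 FPKM, MIM-Astrocytes 40.6, 42.9 and 40.2, NSC 29.6, 28.6 and 24.1, and Glioblastoma 34.2, 36.3 and 38.2. No 2 groups overlapped in any of the 6 comparisons, with Astrocytes highest and NSC lowest. Oaz2 was lower than in Astrocytes by -0.52 in MIM-Astrocytes (SE 0.10, adjusted p = 0.00125), by -1.09 in NSC (adjusted p = 3.73e-06) and by -0.70 in Glioblastoma (adjusted p = 9.01e-05). Glioblastoma was called above NSC (0.39, adjusted p = 0.00535), but under none of the 4 other scalings (0.07 to 0.18). Against MIM-Astrocytes it was -0.18 (adjusted p = 0.132) and, under all 4 scalings, called lower (-0.45 to -0.37). The pseudogene row Oaz2-ps had 5.52, 3.84, 2.40 and 3.02 FPKM in Astrocytes, MIM-Astrocytes, NSC and Glioblastoma.

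Azin1 (chr15:38487427-38519266, minus strand) encodes antizyme inhibitor 1, a relative of ornithine decarboxylase without its activity, and the coding sequences of Odc1 and Azin1 matched at 825 of 1325 aligned bases (62.3%). Astrocytes stood at 69.1, 79.7 and 65.9 FPKM and MIM-Astrocytes at 39.0, 34.4 and 34.6. NSC stood at 53.0, 54.2 and 47.2 and Glioblastoma at 71.6, 73.9 and 83.6. MIM-Astrocytes were below every other library, NSC came next, and Glioblastoma and Astrocytes overlapped. Azin1 was lower in MIM-Astrocytes than in Astrocytes by -0.97 (SE 0.09, adjusted p = 7.1e-06), a mean 1.99 times lower, and lower than in NSC by -0.50 (adjusted p = 0.00102). NSC were lower than Astrocytes by -0.47 (adjusted p = 0.00113). Glioblastoma against MIM-Astrocytes was 1.06 (SE 0.09, adjusted p = 2.72e-06). Glioblastoma against Astrocytes was 0.09 (adjusted p = 0.372) as deposited and reversed to -0.52 to -0.20, called lower, under the 4 other scalings. With array weights, whose estimation stopped before its tolerance was met, this difference was called higher (0.14, adjusted p = 0.029). An antisense gene, Gm49077, overlaps exons of Azin1, so without strand its reads could not be told apart.

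Counted together, 8 of the 10 genes passed the test between MIM-Astrocytes and Astrocytes, where 61.4% of all genes tested were called. The 3 higher ones, against 34.8% of all genes, were Smox, Sms and Srm. The 5 lower ones, against 26.6%, were Sat1, Azin1, Oaz2, Oaz1 and Odc1. The median difference of all 10 genes was -0.12, against 0.09 for all genes tested. The groups did not overlap for 8 of the 10, against 64.5% of all genes. In NSC against Astrocytes 7 passed, against 71.2% of all genes: 1 was higher (37.7% of all genes) and 6 were lower (33.4%), with a median of -0.37 against 0.07, and 6 did not overlap, against 73%. In Glioblastoma against Astrocytes 7 passed, against 78.3% of all genes: 3 were higher (47%) and 4 lower (31.3%), with a median of -0.17 against 0.23, and 6 did not overlap, against 79.9%. Under each of the 4 other scalings that split became 2 higher and 7 lower, where 26.7% to 39.7% of all genes were higher and 38.0% to 48.2% lower.

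MIM-Astrocytes were also set against NSC. Here 6 genes passed, against 55.9% of all genes: 5 were higher (31%) and 1, Azin1, was lower (24.9%), with a median of 0.44 against 0.02, and 6 did not overlap, against 62.3%. In Glioblastoma against NSC 9 passed, against 69.9%: 8 were higher (44.8%) and 1, Smox, was lower (25.1%), with a median of 0.62 against 0.19, and 9 did not overlap, against 75%. Under the other scalings 6 or 7 were higher and 1 or 2 lower in Glioblastoma than in NSC, against 32.6% to 35.99% and 29.9% to 37.7% of all genes: Oaz2 lost its call under all 4 and Paox under 3. The share of all calls in that comparison that were higher moved from 64.1% to between 47.4% and 52.7%. Between Glioblastoma and MIM-Astrocytes 6 passed, against 69.8%: 4 were higher (41.5%) and 2 lower (28.3%) in Glioblastoma, with a median of 0.11 against 0.13, and 8 did not overlap, against 74.5%. Under the other scalings 2 or 3 were higher and 4 lower, against 27.7% to 36.02% and 33.5% to 38.2% of all genes. Most of all genes tested differed between these cultures in each of the 6 comparisons, so a count of 6 to 9 of 10 is not set apart from the background here.

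**Figure D3:**
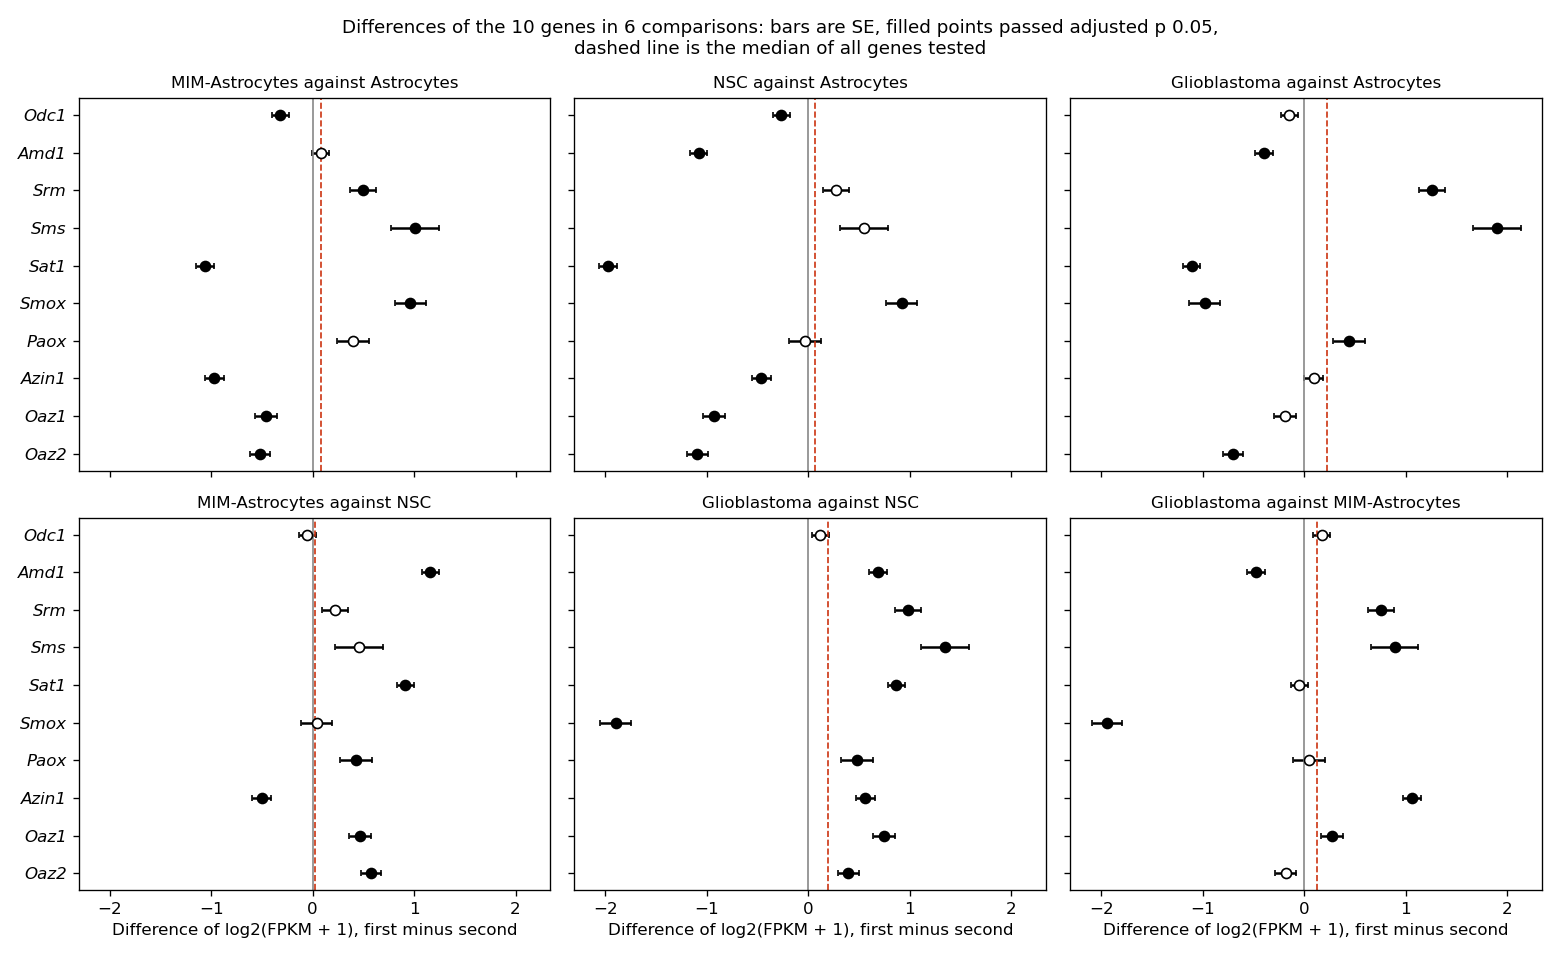
Differences of log2(FPKM + 1), first group minus second (horizontal axis), of the 10 genes in 6 comparisons. Bars are the SE, filled points passed an adjusted p of 0.05 and the dashed line is the median of all genes tested; Sat1 lies left of 0 in the 3 comparisons with Astrocytes, and Smox changes side between them. Odc1, Oaz1 and Azin1 in Glioblastoma against Astrocytes, open here, are called lower under the 4 other scalings. With array weights Azin1 is called higher there (0.14).

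The ratio of 2 genes within a library is free of the scaling of that library, and it shows unequal change only. Azin1 to Oaz1, the antizyme inhibitor over its main target, was 0.184 to 0.204 in Astrocytes and 0.125 to 0.154 in MIM-Astrocytes. It was 0.241 to 0.306 in NSC and 0.213 to 0.255 in Glioblastoma. The MIM-Astrocytes range was below, and the other 2 above, that of Astrocytes. Azin1 to Odc1 was lowest in MIM-Astrocytes too, at 0.522 to 0.633, against 0.847 to 0.919 in Astrocytes, 0.736 to 0.820 in NSC and 0.986 to 1.13 in Glioblastoma, so that these 4 ranges did not overlap. Oaz1 to Odc1, a ratio chosen after values were seen, was 4.11 to 4.95 in the libraries of Astrocytes, MIM-Astrocytes and Glioblastoma and 2.68 to 3.17 in NSC.

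For the breakdown genes, Sat1 to Odc1 was 0.779 to 0.796 in Astrocytes, 0.431 to 0.509 in MIM-Astrocytes, 0.224 to 0.242 in NSC and 0.386 to 0.417 in Glioblastoma. Within each group these ratios spread little. Smox to Sat1, oxidase over acetyltransferase, was also chosen after values were seen. It was 0.785 to 0.805 in Astrocytes and 0.761 to 0.981 in Glioblastoma, but 2.96 to 3.58 in MIM-Astrocytes and 5.90 to 6.93 in NSC. Srm to Sms was 1.48 to 2.85 in Astrocytes and 0.891 to 1.42 in Glioblastoma, which did not overlap. It was 0.843 to 1.66 in MIM-Astrocytes and 1.16 to 1.92 in NSC, and every other pair of groups overlapped.

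**Figure D4:**
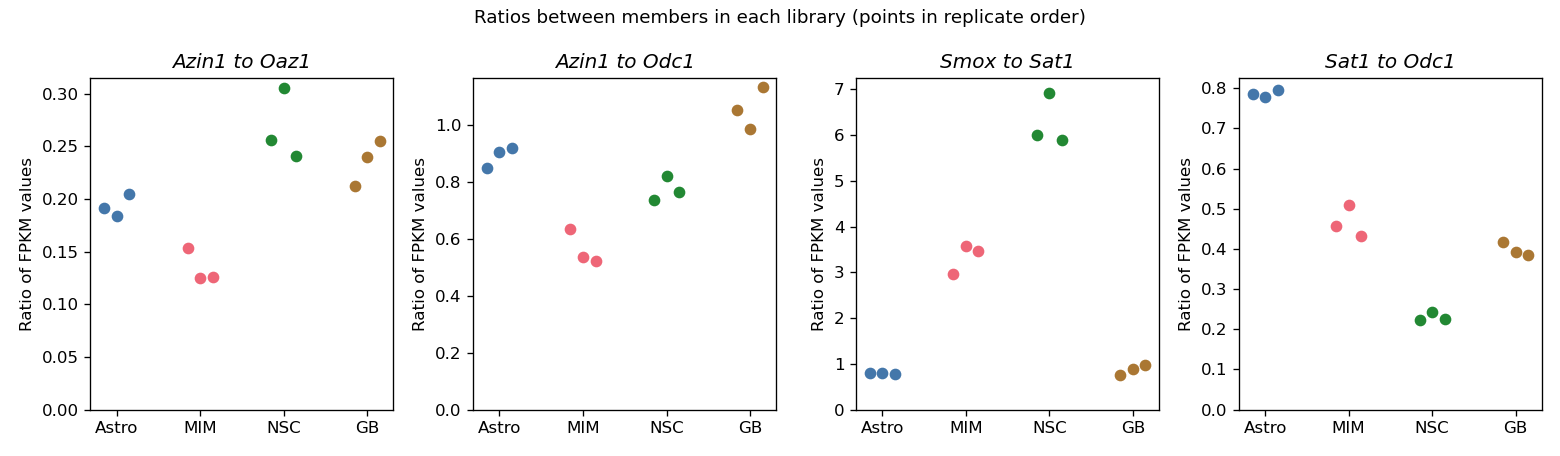
Ratios of FPKM values within each library (vertical axis, from 0, no unit) for Azin1 to Oaz1, Azin1 to Odc1, Smox to Sat1 and Sat1 to Odc1, points in replicate order within each group. MIM-Astrocytes have the lowest Azin1 ratios, and NSC the highest Smox to Sat1 ratio (5.90 to 6.93).

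Over the 12 libraries, which fall into 4 groups, Sat1 and Oaz2 followed each other most closely of the 45 pairs (Pearson r of 0.98 for log2(FPKM + 1)), with Sat1 and Oaz1 next at 0.89. Srm and Sms had an r of 0.85. The most opposed pair was Smox and Azin1, at -0.80. These values describe 4 group levels shared by 3 libraries each, not 12 independent points. Amd1 also followed Oaz2 (0.82), Sat1 (0.80) and Oaz1 (0.74), but its window is not shown. Because Sat1, Oaz1 and Oaz2 went together and Smox did not, the 250 bases before their RefSeq starts are shown (assembly GRCm38.p6, 5′ to 3′ on the strand of the gene). They are chrX:155216450-155216699 on the minus strand for Sat1, chr10:80826406-80826655 on the plus strand for Oaz1, chr9:65676298-65676547 on the plus strand for Oaz2 and chr2:131491612-131491861 on the plus strand for Smox. Capitals mark the GC box (GGGCGG on either strand) and the CCAAT box (CCAAT on either strand), and no 2 marked matches overlap.
Sat1: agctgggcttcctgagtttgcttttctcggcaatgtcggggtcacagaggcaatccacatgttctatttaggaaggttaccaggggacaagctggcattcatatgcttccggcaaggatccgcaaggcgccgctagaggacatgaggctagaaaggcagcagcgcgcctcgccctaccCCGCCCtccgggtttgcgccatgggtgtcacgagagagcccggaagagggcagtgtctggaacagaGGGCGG
Oaz1: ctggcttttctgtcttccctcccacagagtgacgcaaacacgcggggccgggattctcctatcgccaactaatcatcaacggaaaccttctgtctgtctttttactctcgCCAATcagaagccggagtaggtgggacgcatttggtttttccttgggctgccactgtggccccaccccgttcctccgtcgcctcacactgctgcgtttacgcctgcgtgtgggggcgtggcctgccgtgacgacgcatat
Oaz2: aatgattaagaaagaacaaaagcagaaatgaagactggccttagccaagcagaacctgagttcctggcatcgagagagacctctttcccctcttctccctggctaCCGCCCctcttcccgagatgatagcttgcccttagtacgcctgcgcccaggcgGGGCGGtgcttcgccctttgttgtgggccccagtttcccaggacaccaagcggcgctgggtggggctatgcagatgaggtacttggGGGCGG
Smox: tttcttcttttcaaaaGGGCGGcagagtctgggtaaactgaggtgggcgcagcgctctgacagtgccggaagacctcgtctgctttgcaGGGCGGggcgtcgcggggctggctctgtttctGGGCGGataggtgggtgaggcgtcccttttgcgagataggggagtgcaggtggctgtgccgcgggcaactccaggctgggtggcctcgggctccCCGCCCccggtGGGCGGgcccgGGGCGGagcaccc
Smox holds 6 GC boxes, Oaz2 3, Sat1 2 and Oaz1 none, and Oaz1 holds 1 CCAAT box. Among the windows not shown, Odc1 holds 4 GC boxes, Amd1 1, the 2 of Sms none and 4, and the 2 of Paox 1 and 3. Of 32851 windows of this length in the table, 32.7% hold a GC box and 33.8% a CCAAT box. The E-box CACGTG, found in 6.02% of windows, TATAAA (12.4%) and TGACGTCA (1.55%) were in none of the 4. Among the 8 genes with a window in the table, which lacks Srm and Azin1, CACGTG was found once, 196 bases before 1 of the 2 listed starts of Sms. These matches describe letters in the reference and not sites of binding.

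The genes whose log2 levels over the 12 libraries were most like each gene were named by Pearson r among coding genes of at least 5 FPKM on average. For Sat1 these were Enpp5 (r of 0.997, with 56.4, 20.0, 8.23 and 20.4 FPKM in Astrocytes, MIM-Astrocytes, NSC and Glioblastoma) and Aldh3b1. For Oaz2 they were Cltb and Kif3b (both 0.99), for Smox Tnfrsf19 and Osbpl11 (both 0.99), for Azin1 Gadd45g (0.99) and Cbfa2t2 (0.98), and for Oaz1 Chp1 (0.99) and Tor3a (0.97). For Amd1 they were Ndufs1 (0.99) and Emc7 (0.98), for Srm Pgls and Wapl (both 0.98), for Sms Tex30 and Polr2b (both 0.96), and for Paox Xpo6 (0.97) and Nup160 (0.89). For Odc1 they were Stx8 (0.95) and Acot8 (0.94).

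Genes around the pathway were counted by lists, in MIM-Astrocytes against Astrocytes. There 34.8% of all genes tested were higher and 26.6% lower as deposited, and 18.7% to 31.2% higher and 31.8% to 40.8% lower under the 4 other scalings. Of the related copies, 4 of 5 were tested. Sat2, a second acetyltransferase-like gene, fell from 12.4 ± 1.75 FPKM in Astrocytes to 6.40 ± 0.116 in MIM-Astrocytes (SD, n = 3, log2 difference -0.85, adjusted p = 8.75e-05), and Azin2 from 4.87 ± 0.198 to 3.09 ± 0.590 (-0.53, adjusted p = 0.00093). Amd2 (-0.32, adjusted p = 0.361) and Oaz3 (0.22, adjusted p = 0.364) did not pass. The list's median was -0.43, against 0.09 for all genes.

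Of the 10 genes listed for arginine and ornithine supply, 6 were tested, 2 higher and 4 lower in MIM-Astrocytes than in Astrocytes, under every scaling. Ass1, which joins citrulline and aspartate on the way to arginine, was at 32.96 ± 2.31 FPKM in Astrocytes and 0.366 ± 0.0687 in MIM-Astrocytes (-4.63, adjusted p = 9.82e-12), and Asl, the next enzyme, at 27.1 and 9.06 (-1.49). The arginine carriers Slc7a1 (1.49) and Slc7a3 (1.77) were higher. In Glioblastoma these carriers reached 41.0 and 22.2 FPKM, against 1.13 and 0.778 in Astrocytes.

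Of 9 tested genes that supply S-adenosylmethionine or salvage methylthioadenosine, the by-product of both synthases, none was higher and 4 were lower in MIM-Astrocytes than in Astrocytes as deposited: Apip (-0.37), Adi1 (-0.35), Mat2a (-0.32) and Mat2b (-0.27). Of all genes, 34.8% were higher and 26.6% lower. Under the other scalings 5 to 8 of the 9 were lower, against 31.8% to 40.8% of all genes. Of the 4 genes of hypusine, the spermidine-derived residue of a translation factor, Eif5a, the factor itself, was higher (0.74, from 110 to 185 FPKM, called under every scaling), and Dhps (-0.44), Dohh (-0.24) and Eif5a2 (-0.16) were lower.

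Of 13 genes listed for polyamine transport, 8 were tested, 2 higher and 3 lower in MIM-Astrocytes. Atp13a4 (1.30) and the proteoglycan gene Gpc1 (0.66) were higher, and Slc12a8 (-1.34) and Slc3a2 (-0.995, from 338 to 169 FPKM) were among the lower. Of 5 tested genes of putrescine oxidation and GABA, none was higher and 4 were lower, led by Gad1 (-0.62) and Aldh9a1 (-0.54), against 34.8% and 26.6% of all genes. Under the 4 other scalings all 5 were lower, against 31.8% to 40.8%. All 10 genes of the Myc and Max network, whose Myc protein is known to act on Odc1, were tested, 5 higher and 2 lower, against 34.8% and 26.6% of all genes. Under the other scalings 3 or 4 were higher and 2 or 3 lower, and Mga (0.22 as deposited) was called under none (-0.11 to 0.14). Mxd3 (3.66), Mycl (1.30) and Mxd1 (0.96) were higher and Max was lower (-0.85). Myc itself stood at 3.45, 4.09, 7.13 and 23.3 FPKM in Astrocytes, MIM-Astrocytes, NSC and Glioblastoma. Odc1 averaged 80.4, 64.1, 66.6 and 72.3 FPKM in the same order, and a link between Myc and Odc1 was not tested. Myc was not chosen by the rule for named genes but after its values were seen, and its difference in MIM-Astrocytes was 0.19 (adjusted p = 0.077).

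Other marker genes moved with these groups. The sum of 4 cycling-cell genes (Mki67, Top2a, Ccnb1 and Cdk1) was 2.72 to 3.10 FPKM in Astrocytes, 333 to 348 in MIM-Astrocytes, 103 to 119 in NSC and 304 to 321 in Glioblastoma. It was lowest in Astrocytes and next lowest in NSC, as were the means of Srm and Sms as deposited. The cycling sum was highest in MIM-Astrocytes, whereas the means of Srm and Sms were highest in Glioblastoma. A list of 7 oligodendrocyte lineage genes summed to 35.5 to 41.7 FPKM in Astrocytes, 107 to 119.6 in MIM-Astrocytes, 153 to 174 in NSC and 128 to 134 in Glioblastoma. A list of 6 neuronal genes summed to 104 to 109.9, 169 to 189, 275 to 303 and 202 to 214 FPKM in that order. Both sums were lowest in Astrocytes and highest in NSC, the reverse of Sat1 and Oaz2, but single genes differed. In MIM-Astrocytes against Astrocytes 3 of 6 tested oligodendrocyte genes were higher and 1 lower, and 1 of 4 tested neuronal genes was higher and 1 lower. In NSC against Astrocytes these counts were 5 and 1, and 3 and 1. Of all genes tested, 34.8% were higher and 26.6% lower in the first comparison, and 37.7% and 33.4% in the second. A list of 5 meningeal fibroblast genes summed to 154 to 185 FPKM in Astrocytes and 5.98 to 26.4 elsewhere, but nearly all of this was Ogn (151 to 182), while Dcn reached at most 0.0980 and Lum at most 0.0167 in any library. The part of these cells and of cycling in the results was not tested. Astrocytes replicate 2 was the highest of its group for 8 of the 10 genes and NSC replicate 3 the lowest of its group for 9.

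The scale of the libraries bears on the Glioblastoma values most. FPKM totals differed between libraries, and the median difference of all genes in Glioblastoma against Astrocytes was 0.23 as deposited. It became -0.01 when each library was divided by its median ratio to the mean library, 0.03 under quantile normalization, -0.29 when all libraries were scaled to a common FPKM total and -0.06 when mitochondrial genes and small RNAs were left out of that total. The share of calls that were higher moved from 60.0% to 49.3%, 51.1%, 35.7% and 47.1% in that order. In MIM-Astrocytes against Astrocytes it moved from 56.7% to 48.5%, 49.1%, 31.4% and 48.5%, and the 3 higher and 5 lower genes were counted under all but the common total, which gave 2 and 5. In Glioblastoma against Astrocytes Srm and Sms were called higher, and Sat1, Smox, Amd1 and Oaz2 called lower, under all 4 scalings as well as in the deposited values. Their sizes moved: over the 4 scalings Srm was at 0.68 to 0.99, Sat1 at -1.71 to -1.40, Smox at -1.58 to -1.27 and Oaz2 at -1.30 to -0.99. In MIM-Astrocytes against Astrocytes, Odc1 was at -0.65 to -0.42, Oaz1 at -0.88 to -0.56, Oaz2 at -0.85 to -0.62 and Smox at 0.63 to 0.86. In NSC against Astrocytes, Odc1 was at -0.66 to -0.29, Azin1 at -0.86 to -0.48 and Smox at 0.53 to 0.90, and these 7 differences were called under all 4.

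**Figure D5:**
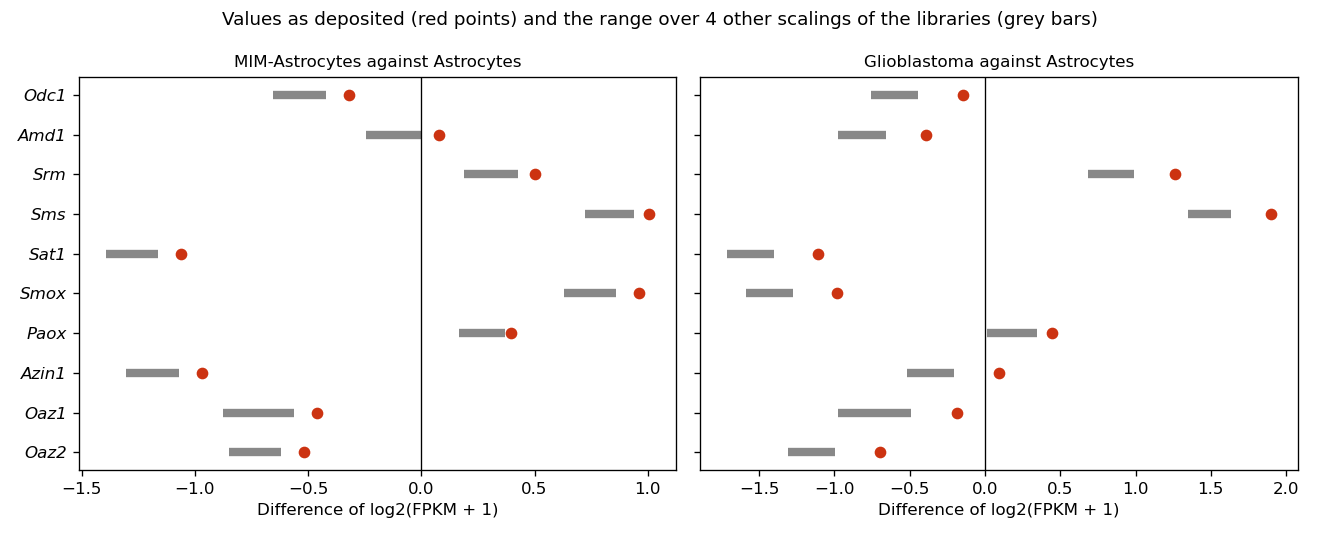
Differences of log2(FPKM + 1) (horizontal axis) of the 10 genes in MIM-Astrocytes and in Glioblastoma against Astrocytes, as deposited (red points) and over 4 other scalings (grey bars, lowest to highest). All bars lie left of the red points, Azin1 in Glioblastoma crosses 0 (0.09 as deposited, -0.52 to -0.20 otherwise), and Amd1 in MIM-Astrocytes spans it.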

How the data were processed

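Gene expression was measured by RNA-seq in 12 libraries, 3 in each of 4 groups. The authors deposited 1 table per library of FPKM values with an interval and a status, computed with Cufflinks on GRCm38, per the submitters' processing notes. The aligner, strandedness and versions are not given in the sources used here. Each table had 53989 lines for 53932 identifiers, and the values of the 45 identifiers on more than 1 line were added. Positions and gene types came from GENCODE release M21.

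Genes of at least 1 FPKM in 3 libraries were tested on log2(FPKM + 1) with limma 3.58.1 in R 4.3.3, as a linear model of the 4 groups with variance shrinkage following the mean level and Benjamini-Hochberg adjustment over all genes tested in a comparison. The procedure was tested on simulated data without differences of scale between libraries. That test therefore says nothing about the effect of the scalings. Tables and figures were made with Python 3.11.15, pandas 2.3.3, NumPy 2.4.6 and matplotlib 3.10.9. Counts and library totals were not used, so depth is only an estimate from the intervals. Promoter windows are from RefSeq (GRCm38.p6), which held 8 of the 10 genes.

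Named genes were all 10 members, up to 4 called genes per pathway list with the largest MIM-Astrocytes against Astrocytes difference, the related copies, and the 2 most similar coding genes for each member. The members and lists were chosen with earlier results of these data known. Alternatives covered the pseudocount, the filter, the status, 4 scalings, repeated lines, the libraries fitted, a replicate block, weights, the variance prior and each library left out. Adding the copies of Amd1 was chosen after seeing the data.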

Additional observations from a re-analysis of the deposited data

How the results depend on the processing

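Of 60 differences (10 genes in 6 comparisons), 34 kept their direction and their side of the threshold under every alternative tried, which gave 1566 values in all. In these, 46 calls were lost and 44 gained with the sign kept. A further 36 values changed sign, 28 of these with no call before or after, and the rest gained or lost a call as well. The number of the 10 genes called stayed within 1.5 times in every comparison. Scaling changed most. Azin1 in Glioblastoma against Astrocytes became -0.20 by median ratios, -0.28 by quantiles, -0.52 at a common FPKM total and -0.23 once mitochondrial genes and small RNAs were dropped. In that order, Odc1 in Glioblastoma became -0.12, -0.21, -0.10 and -0.19 against NSC and -0.014, -0.017, -0.10 and -0.050 against MIM-Astrocytes, and Paox against MIM-Astrocytes became -0.087, -0.023, -0.15 and -0.11. Against NSC, Odc1 in Glioblastoma was called lower by quantiles (adjusted p = 0.00252) and without mitochondrial genes and small RNAs (adjusted p = 0.00563). Oaz1 against MIM-Astrocytes became -0.10 by quantiles and -0.0058 at a common total. In MIM-Astrocytes against Astrocytes, Amd1 became -0.028 by median ratios, -0.24 at a common total, -0.018 with mitochondrial genes and small RNAs left out and -0.035 with Amd2 added. In MIM-Astrocytes against NSC, Smox became -0.0095, -0.046 and -0.041 by median ratios, by quantiles and without mitochondrial genes and small RNAs, and Odc1 0.0066 at a common total. In the same comparison Odc1 was called lower by quantiles (-0.19, adjusted p = 0.00522) and without mitochondrial genes and small RNAs (-0.14, adjusted p = 0.0328). Srm in NSC against Astrocytes became -0.088 at a common total, and Paox in Glioblastoma against MIM-Astrocytes -0.028 with array weights, whose estimation stopped before its tolerance was met. The cause was not tested for any of these.

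Leaving out 1 library turned the sign of uncalled values only: Paox ranged from -0.21 to 0.078 in NSC against Astrocytes and from -0.054 to 0.16 in Glioblastoma against MIM-Astrocytes, Odc1 from -0.11 to 0.004 and Smox from -0.076 to 0.16 in MIM-Astrocytes against NSC, and Sat1 from -0.085 to 0.018 in Glioblastoma against MIM-Astrocytes. Replicate numbers are not said to pair libraries: over genes, same-numbered libraries of 2 groups deviated from their group means with an r of -0.058 to 0.097. With a replicate block in the 6 libraries of a comparison, 6 of the 10 genes were called in MIM-Astrocytes against Astrocytes, where Odc1 (adjusted p = 0.0527) and Srm (adjusted p = 0.108) lost their calls, and 7, 7, 7, 9 and 5 in the other comparisons in the order of the report. Sms in MIM-Astrocytes against NSC gained a call (adjusted p = 0.00829) and Oaz1 in Glioblastoma against MIM-Astrocytes lost its own. With only the 6 libraries and no replicate block, Odc1 in NSC against Astrocytes lost its call (adjusted p = 0.0576). So did Paox in Glioblastoma against Astrocytes (adjusted p = 0.0692). In Glioblastoma against MIM-Astrocytes, Odc1 was then called higher (0.17, adjusted p = 0.0386) and Oaz2 lower (-0.18, adjusted p = 0.0284). Paox averaged under 5 FPKM and had no value under that filter. Its wide intervals limit what can be seen of it.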
